A study of Mus musculus with 8 samples.

Results

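The genes described here are p53 target genes that act in cell cycle arrest, cell death, DNA repair and metabolism, and genes of the mitotic machinery were left out of the list. They were taken as every probe set of the array annotated to a single gene of a list of 32 genes. Of these, 31 were measured, by 60 of the 45037 probe sets that are not controls, and 52 probe sets of 30 genes were bright enough to be tested, among 27022 probe sets and 12949 genes tested in all. No probe set could be assigned to Fdxr from the annotation used, and both probe sets of Tnfrsf10b were too dim. Where a gene has several probe sets, it is described by the one of highest mean, and the others are named where they differ.

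p53 is a transcription factor that is stabilised after DNA damage and other stress and switches on genes that stop the cell cycle, repair DNA or kill the cell. It is held low by Mdm2, the ubiquitin ligase that it induces itself. In hepatocytes, p53 targets such as the cell cycle inhibitor Cdkn1a limit division during injury and regeneration, and several of them also respond to other stress pathways, such as ATF4.

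Total RNA of mouse liver was hybridised to Affymetrix expression arrays. One genotype was Pemt-/-, which lacks phosphatidylethanolamine N-methyltransferase in every tissue, and the other was Pemt+/+, and both were fed high fat-high sucrose (HFHS) chow. Each genotype had 4 arrays, with 1 array at each of weeks 1, 2, 3 and 4 of the diet. The methods describe male mice and give 4 mice for each genotype, but whether an array holds RNA of 1 mouse or of more is not stated, and the age at sampling was not given. All groups share the HFHS diet, so no array shows the genotypes without it. The p-values of the genotype difference rest on how much that difference varies from week to week. Changes that both genotypes share in a week are taken out. With 1 array per genotype and week, a week on its own has no test. Week 2 was singled out with earlier results of these data known. Results without week 2 are therefore descriptions and not support for a rise.

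Values are intensities on a linear scale, which the authors had scaled so that the trimmed mean was 500.0 on every array. The genotype difference is a difference in log2(intensity + 16), Pemt-/- minus Pemt+/+, fitted with the week as a block. Fold changes are given on this scale, which makes those of dim probe sets too small. The word rose or fell is used where limma's p, adjusted over all probe sets tested, lay under 0.05. The Pemt probe set had a mean of 224 in Pemt-/- and 5543 in Pemt+/+ liver (log2 difference -4.54, adjusted p = 5.00e-07), although the sources used do not tell whether the deletion covers it. Hepatocyte markers were bright on all arrays, with a summed intensity of 22 markers of 504320 to 630550 in Pemt-/- and 700640 to 739360 in Pemt+/+ liver.

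The promoters of 3 members are shown because they hold a match to the p53 motif just before the start of transcription and their levels are described first. The windows are the 250 bases before the RefSeq start, on the strand of the gene, in build GRCm38.p6. Capitals mark each match to the 10-base p53 motif, which reads the same on both strands, so 1 scan covers both. A full p53 response element is a pair of such motifs close together, so each marked stretch is only part of one. The Cdkn1a window lies at chr17:29090729-29090978 on the plus strand, that of Ccng1 at chr11:40755287-40755536 on the minus strand, and that of Mdm2 at chr10:117710759-117711008 on the minus strand.
Cdkn1a: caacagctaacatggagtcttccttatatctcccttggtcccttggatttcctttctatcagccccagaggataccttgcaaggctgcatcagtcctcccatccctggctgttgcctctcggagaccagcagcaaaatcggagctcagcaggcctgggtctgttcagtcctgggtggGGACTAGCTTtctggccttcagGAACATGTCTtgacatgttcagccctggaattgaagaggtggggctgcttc
Ccng1: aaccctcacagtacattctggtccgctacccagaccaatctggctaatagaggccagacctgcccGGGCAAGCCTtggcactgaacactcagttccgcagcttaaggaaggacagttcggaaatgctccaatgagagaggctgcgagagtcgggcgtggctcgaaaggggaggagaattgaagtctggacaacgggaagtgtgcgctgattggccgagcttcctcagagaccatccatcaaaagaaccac
Mdm2: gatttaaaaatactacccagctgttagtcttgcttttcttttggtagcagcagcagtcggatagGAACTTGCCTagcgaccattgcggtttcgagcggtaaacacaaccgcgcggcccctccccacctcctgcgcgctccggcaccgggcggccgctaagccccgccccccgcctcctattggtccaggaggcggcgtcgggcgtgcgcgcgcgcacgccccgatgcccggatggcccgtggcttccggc
Cdkn1a had 2 matches, GGACTAGCTT at 73 bases and GAACATGTCT at 51 bases before the start. The matches of Ccng1, GGGCAAGCCT, and of Mdm2, GAACTTGCCT, lay 185 and 186 bases before the start.

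Shorter stretches are shown for Aen and Gadd45a, which rose in Pemt-/- liver, each with 10 bases on either side of the match. The Aen match lies at chr7:78895937-78895946 on the plus strand and that of Gadd45a at chr6:67037438-67037447 on the minus strand.
Aen: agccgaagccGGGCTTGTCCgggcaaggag
Gadd45a: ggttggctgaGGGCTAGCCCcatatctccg
Of the 23 members with a window, 8 held at least 1 match, namely Cdkn1a, Mdm2, Ccng1, Gadd45a, Ei24, Aen, Polk and Sesn1. That is 34.8%, beside 8.2% of the 27025 genes with a window. Cdkn1a was the 1 member with 2 matches, which 0.281% of all genes had. A match is a description of the letters and does not show that p53 binds there, and 4 of the 11 members with a window that rose had one. Zmat3, Ptp4a3, Pmaip1, Tnfrsf10b, Perp, Trp53inp1, Rrm2b, Ddb2 and Xpc have no window in the table used.

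Between the genotypes, 14 of the 30 member genes tested rose in Pemt-/- liver, 1 fell and 15 did not pass the test. Over all genes tested, 12.6% rose and 7.51% fell. The median log2 difference was 0.76 for the members and 0.02 for all genes. Counted by probe set, 20 of 52 rose and 1 fell, beside 10.3% and 5.86% of all probe sets tested. In 12 members all 4 Pemt-/- arrays lay above all 4 Pemt+/+ arrays, as in 15.2% of all genes, and in 1 they all lay below, as in 10.4%. The count of 14 genes was 9 without week 1 and 17 without week 2. Over all probe sets tested, 2788 rose with all weeks, 1947 without week 1 and 2942 without week 2. Since Eda2r passed the filter on low values only through its Pemt-/- arrays, and the members were listed with results of these data known, these counts describe the list and test nothing.

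**Figure D1:**
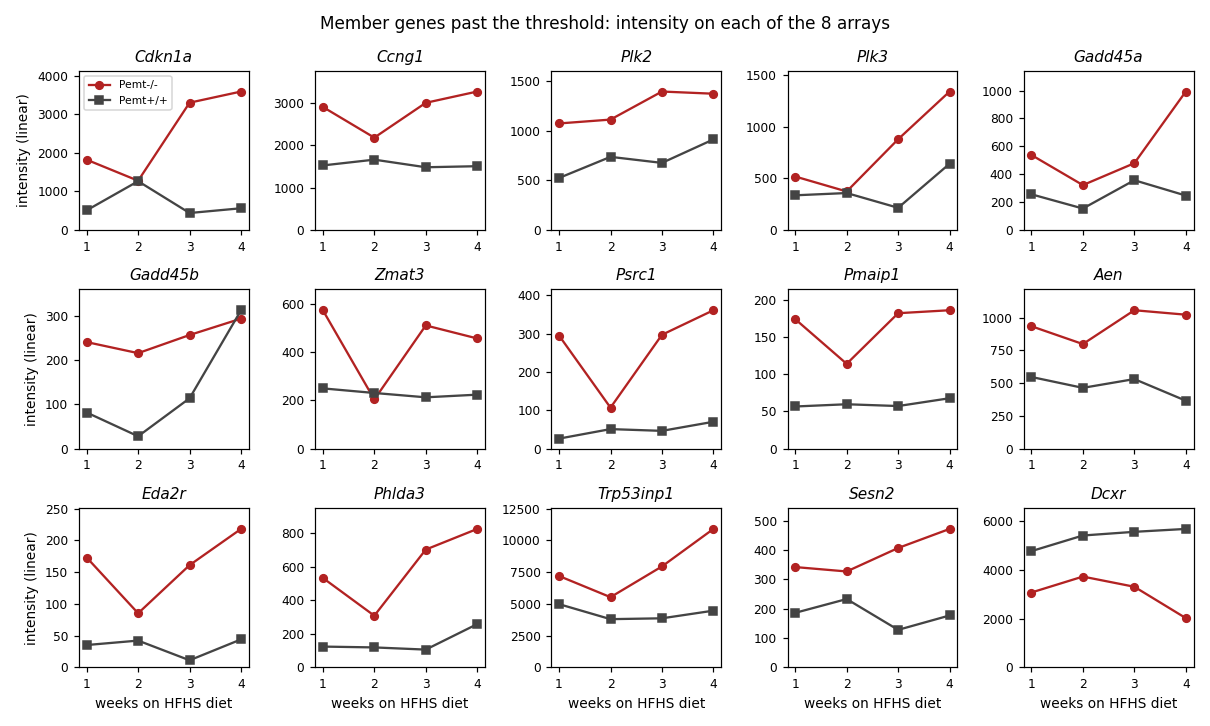
Intensity (linear scale, from 0) on each of the 8 arrays for the 15 members that passed the test, against the weeks on HFHS diet, with circles for Pemt-/- and squares for Pemt+/+ and 1 array at each point. Cdkn1a reached 3586 in Pemt-/- at week 4, while at week 2 it was 1276 beside 1264 in Pemt+/+, and Dcxr is the 1 gene that lay lower in Pemt-/-.

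Among the genes of cell cycle arrest and feedback, 8 of 11 rose, none fell, and the median log2 difference was 0.86. Cdkn1a encodes p21, the inhibitor of cyclin-dependent kinases that carries the arrest induced by p53. In weeks 1, 2, 3 and 4 its intensity was 1820, 1276, 3297 and 3586 in Pemt-/- and 510, 1264, 440 and 563 in Pemt+/+ liver. Every Pemt-/- array was above every Pemt+/+ array, but at week 2 the genotypes were almost equal, since the Pemt-/- array was at its lowest and the Pemt+/+ array at its highest. Cdkn1a rose 3.55-fold, by a log2 difference of 1.83 ± 0.39 SE (adjusted p = 0.0156). Without week 2 the rise was 5.41-fold (adjusted p = 0.000526). The call was lost without week 1, 3 or 4, with adjusted p = 0.07, 0.0674 and 0.0603. The other probe set of Cdkn1a rose by a log2 difference of 1.14 ± 0.25 SE (adjusted p = 0.0167). Its ranges overlapped at week 2, with 1111 in Pemt-/- and 1116 in Pemt+/+ liver. Its call was also lost without week 1, 3 or 4 (adjusted p = 0.0831, 0.0783 and 0.0657).

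Ccng1, cyclin G1, recruits a phosphatase to Mdm2 and takes part in p53 feedback. It measured 2912, 2186, 3010 and 3277 in Pemt-/- and 1528, 1665, 1485 and 1510 in Pemt+/+ liver over the 4 weeks. The groups did not overlap, and the 4 Pemt+/+ arrays lay close together (1547 ± 80.6, SD, n = 4). Ccng1 rose 1.81-fold, by a log2 difference of 0.86 ± 0.13 SE (adjusted p = 0.00388), and each of its 3 probe sets passed the test.

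Mdm2 itself, the main brake on p53, measured 1014, 776, 813 and 813 in Pemt-/- and 524, 720, 690 and 684 in Pemt+/+ liver. All Pemt-/- arrays were above all Pemt+/+ arrays, but the gap was narrow in weeks 2 to 4. The log2 difference of 0.38 ± 0.15 SE did not pass the test (adjusted p = 0.13). A dimmer probe set of Mdm2, with 350, 293, 307 and 392 in Pemt-/- and 184, 215, 242 and 250 in Pemt+/+ liver, did pass (log2 difference 0.56 ± 0.15 SE, adjusted p = 0.0379), so the probe sets of Mdm2 disagree on the call.

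Psrc1 had the largest difference among the probe sets that stand for the members. It encodes a p53-inducible protein that binds microtubules of the mitotic spindle, so the list is not strictly free of mitotic genes. Its intensity was 295, 107, 297 and 361 in Pemt-/- and 26.3, 51.1, 46.5 and 70.2 in Pemt+/+ liver. The groups did not overlap, and the lowest Pemt-/- array was again that of week 2. Psrc1 rose 4.14-fold, with a log2 difference of 2.05 ± 0.31 SE (adjusted p = 0.00365), by 1 of its 3 probe sets, and the other probe sets were too dim to be tested.

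The polo-like kinases Plk2 and Plk3 act in the stress response and at cell cycle checkpoints. Plk2 measured 1075, 1114, 1397 and 1375 in Pemt-/- and 525, 738, 677 and 914 in Pemt+/+ liver, without overlap. It rose 1.74-fold (log2 difference 0.80 ± 0.13 SE, adjusted p = 0.00443). Plk3 measured 518, 373, 879 and 1341 against 336, 358, 215 and 642, and the groups overlapped because the Pemt+/+ array of week 4 was above the Pemt-/- arrays of weeks 1 and 2. Its rise of 1.88-fold (adjusted p = 0.0464) became 2.29-fold without week 2 (adjusted p = 0.0129) and was lost without week 1, 3 or 4 (adjusted p = 0.0985, 0.146 and 0.138).

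Gadd45a and Gadd45b encode small stress proteins that slow the cell cycle and take part in DNA repair, and Gadd45b is also a target of NF-κB. Gadd45a measured 538, 322, 479 and 993 in Pemt-/- and 256, 154, 357 and 247 in Pemt+/+ liver. In each week Pemt-/- was higher, although the ranges overlapped by 1 array of each genotype. Gadd45a rose 2.13-fold, by a log2 difference of 1.09 ± 0.22 SE (adjusted p = 0.013), and the call was lost without week 1 (adjusted p = 0.0548).

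Gadd45b had a pattern unlike that of Gadd45a. Its intensity was 241, 216, 257 and 294 in Pemt-/- and 81.8, 28.1, 114 and 313 in Pemt+/+ liver, so the Pemt-/- arrays were alike and the Pemt+/+ array of week 4 was the highest of all 8. It rose 2.29-fold (log2 difference 1.19 ± 0.34 SE, adjusted p = 0.0453), a call that was lost without week 1, 2 or 3 (adjusted p = 0.149, 0.0983 and 0.117). Another probe set of Gadd45b rose by a log2 difference of 2.46 ± 0.47 SE (adjusted p = 0.0096), and the third had a log2 difference of -0.69 ± 0.21 SE that did not pass (adjusted p = 0.0599), so the direction of Gadd45b depends on the probe set.

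Zmat3, an RNA-binding zinc finger protein induced by p53, measured 574, 204, 511 and 457 in Pemt-/- and 250, 231, 213 and 224 in Pemt+/+ liver. The Pemt-/- array of week 2 lay below all Pemt+/+ arrays, and the other Pemt-/- arrays lay above all of them. Zmat3 rose 1.73-fold (adjusted p = 0.0481) and 2.16-fold without week 2 (adjusted p = 0.00245), and its call was lost without week 1, 3 or 4 (adjusted p = 0.172, 0.187 and 0.152).

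The antiproliferative gene Btg2 did not pass the test, with 639, 751, 1134 and 1216 in Pemt-/- and 502, 890, 377 and 653 in Pemt+/+ liver (log2 difference 0.63 ± 0.25 SE, adjusted p = 0.121). Its order was turned at week 2, and without that week it passed (log2 difference 0.92, adjusted p = 0.0239). Without week 1, 3 or 4 it did not pass (adjusted p = 0.182, 0.409 and 0.307). The other probe set of Btg2 had a log2 difference of 0.27 (adjusted p = 0.327) and did not pass without week 2 either (adjusted p = 0.0503). The phosphatase gene Ptp4a3 had a log2 difference of 0.73 ± 0.23 SE (adjusted p = 0.0647) in its brighter probe set and -0.72 ± 0.29 SE (adjusted p = 0.126) in the other, neither past the threshold.

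**Figure D2:**
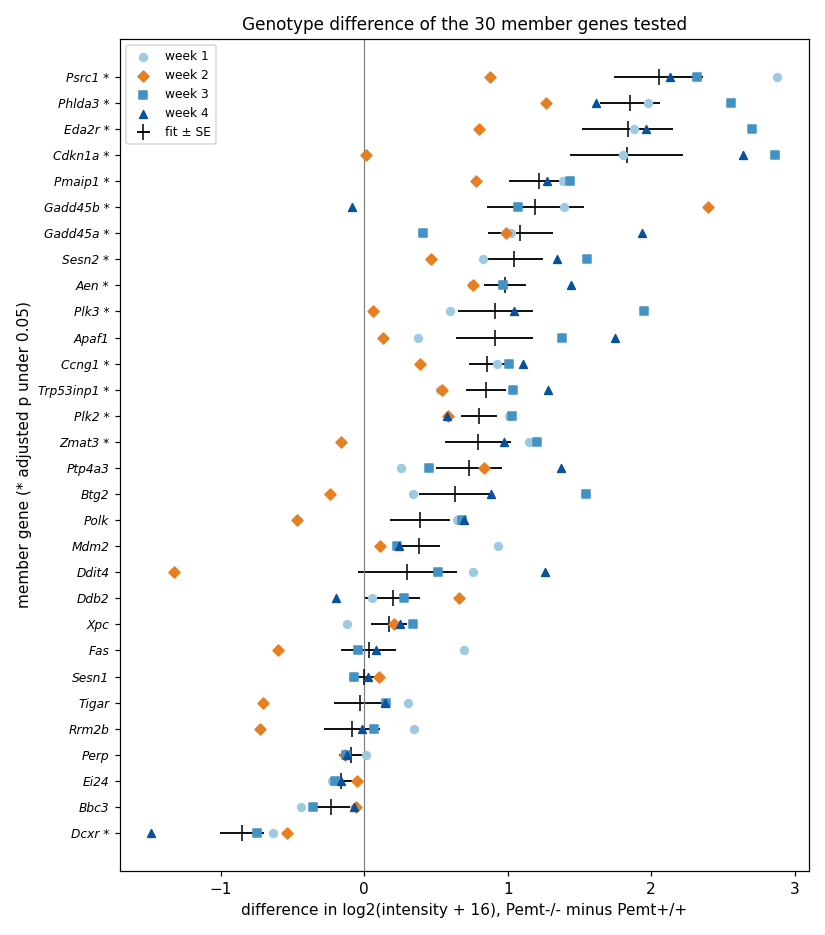
Genotype difference in log2(intensity + 16), Pemt-/- minus Pemt+/+, of the 30 member genes tested, with a marker for each week (week 2 in orange) and the fitted difference with its SE in black. Asterisks mark the 15 genes with adjusted p under 0.05, and the week 2 marker is the leftmost of the 4 in 18 genes.

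Among the genes of cell death and survival, 5 of 10 rose, none fell, and the median log2 difference was 0.88. Phlda3, which binds phosphoinositides and restrains Akt, had the smallest adjusted p of the members. It measured 533, 308, 702 and 825 in Pemt-/- and 124, 119, 106 and 258 in Pemt+/+ liver, and the groups did not overlap. Phlda3 rose 3.62-fold (log2 difference 1.85 ± 0.21 SE, adjusted p = 0.00135).

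Eda2r, a receptor of the TNF receptor family, measured 173, 85.2, 161 and 218 in Pemt-/- and 35.2, 42.2, 11.2 and 44.1 in Pemt+/+ liver. The Pemt+/+ arrays lay under the filter level of 45.53, so Eda2r could be tested only because it was brighter in Pemt-/-. It rose 3.57-fold (log2 difference 1.84 ± 0.32 SE, adjusted p = 0.00655). Pmaip1, which encodes the BH3-only protein Noxa, measured 174, 114, 182 and 186 against 56.7, 59.7, 57.3 and 67.8, again without overlap. It rose 2.33-fold (log2 difference 1.22 ± 0.21 SE, adjusted p = 0.00638).

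Aen is an exonuclease that p53 induces during apoptosis. Its intensity was 934, 798, 1056 and 1022 in Pemt-/- and 547, 464, 531 and 366 in Pemt+/+ liver, with no overlap. Aen rose 1.97-fold, by a log2 difference of 0.98 ± 0.14 SE (adjusted p = 0.00332), and 2 of its 4 probe sets passed the test, the others having log2 differences of 0.51 (adjusted p = 0.139) and 0.32 (adjusted p = 0.498).

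Trp53inp1 encodes a stress protein that acts in apoptosis and autophagy. It measured 7195, 5528, 7948 and 10900 in Pemt-/- and 4979, 3797, 3864 and 4466 in Pemt+/+ liver. The groups did not overlap, and Trp53inp1 rose 1.80-fold (log2 difference 0.85 ± 0.14 SE, adjusted p = 0.0051). A dim probe set of Trp53inp1 had a log2 difference of -0.08 (adjusted p = 0.881).

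Apaf1, the scaffold of the apoptosome, lay just outside the threshold. It measured 304, 225, 357 and 432 in Pemt-/- and 230, 203, 128 and 117 in Pemt+/+ liver, with an overlap of 1 array in each genotype. Its log2 difference was 0.91 ± 0.27 SE (adjusted p = 0.0512), and without week 2 it was 2.25-fold higher (adjusted p = 0.0201). Without week 1, 3 or 4 it did not pass (adjusted p = 0.0769, 0.19 and 0.186). A dimmer probe set of Apaf1 had a log2 difference of 0.28 (adjusted p = 0.538) and did not pass without week 2 either (adjusted p = 0.529).

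The remaining death genes did not pass the test. Bbc3, which encodes the BH3-only protein Puma, measured 388, 525, 405 and 373 in Pemt-/- and 533, 548, 523 and 393 in Pemt+/+ liver (log2 difference -0.23 ± 0.13 SE, adjusted p = 0.268). Unlike Pmaip1, Bbc3 had the lower value in Pemt-/- in each week, although the difference between these genes was not tested. The death receptor gene Fas had a log2 difference of 0.03 ± 0.19 SE (adjusted p = 0.929), the desmosomal gene Perp -0.09 ± 0.08 SE (adjusted p = 0.496) and Ei24, a protein of the endoplasmic reticulum, -0.16 ± 0.08 SE (adjusted p = 0.229). Tnfrsf10b, the mouse TRAIL receptor, was not tested, and its brighter probe set ran from 5.4 to 29.9 in Pemt-/- and from 4.7 to 26.8 in Pemt+/+ liver.

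None of the 4 genes of DNA repair and nucleotide supply passed the test, and their median log2 difference was 0.18. The translesion polymerase gene Polk measured 434, 231, 429 and 508 in Pemt-/- and 272, 324, 261 and 307 in Pemt+/+ liver. Pemt-/- was the higher in weeks 1, 3 and 4 and the lower in week 2. Its log2 difference was 0.39 ± 0.21 SE (adjusted p = 0.249), and without week 2 it was 1.60-fold higher (adjusted p = 0.0159). Without week 1, 3 or 4 it did not pass (adjusted p = 0.488, 0.535 and 0.544). The other probe set of Polk had a log2 difference of 0.10 (adjusted p = 0.828) and did not pass without week 2 either (adjusted p = 0.508). Rrm2b, a subunit of ribonucleotide reductase, had a log2 difference of -0.08 ± 0.19 SE (adjusted p = 0.813). The damage recognition genes Ddb2 and Xpc of nucleotide excision repair had log2 differences of 0.20 ± 0.19 SE (adjusted p = 0.528) and 0.17 ± 0.13 SE (adjusted p = 0.4).

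Among the 5 genes of metabolism and stress signalling, 1 rose, 1 fell and the median log2 difference was -0.00. Sesn2 encodes sestrin 2, which restrains mTORC1 and responds to ATF4 as well as to p53. It measured 342, 327, 407 and 472 in Pemt-/- and 186, 233, 128 and 177 in Pemt+/+ liver, without overlap. Sesn2 rose 2.07-fold (log2 difference 1.05 ± 0.20 SE, adjusted p = 0.00944), by 1 of its 2 probe sets, the other having a log2 difference of 0.08 (adjusted p = 0.792). The related sestrin gene Sesn1 measured 1076, 1196, 832 and 839 against 1135, 1111, 875 and 824. In both genotypes this probe set of Sesn1 was lower in weeks 3 and 4 than in weeks 1 and 2. Its genotype difference was -0.00 ± 0.10 SE on the log2 scale (adjusted p = 0.984). Another probe set of Sesn1, nearly as bright, measured 882, 959, 827 and 1069 against 1178, 862, 958 and 763, without that order.

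Dcxr, an enzyme that reduces dicarbonyls and xylulose, was the 1 member that fell. It measured 3076, 3730, 3312 and 2025 in Pemt-/- and 4775, 5417, 5568 and 5687 in Pemt+/+ liver, so every Pemt-/- array was below every Pemt+/+ array. Dcxr fell 1.80-fold, with a log2 difference of -0.85 ± 0.15 SE (adjusted p = 0.00767). Over the same arrays 17 of 22 hepatocyte markers fell, with a median of -0.40, and the part of hepatocyte content in the Dcxr value was not tested.

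Ddit4, the mTORC1 inhibitor Redd1, measured 2021, 859, 1890 and 3919 in Pemt-/- and 1187, 2181, 1318 and 1628 in Pemt+/+ liver. Pemt-/- was the higher in 3 weeks and the lower in week 2. Its log2 difference of 0.30 ± 0.34 SE did not pass (adjusted p = 0.599), while without week 2 it was 1.80-fold higher (adjusted p = 0.00815). Without week 1, 3 or 4 it did not pass (adjusted p = 0.857, 0.79 and 0.983). Tigar, which lowers glycolytic flux, had a log2 difference of -0.03 ± 0.18 SE (adjusted p = 0.939).

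The weekly ratios of Pemt-/- to Pemt+/+ intensity, which carry no test, were counted at 2 or more and at 0.5 or less. A ratio of 2 or more was found in 9, 5, 14 and 15 of the 30 members at weeks 1, 2, 3 and 4, beside 7.58%, 6.21%, 10.9% and 10.6% of all genes. A ratio of 0.5 or less was found in 0, 1, 0 and 1 members, beside 3.7%, 4.83%, 5.17% and 5.67% of all genes. The members at 0.5 or less were Ddit4 at week 2 and Dcxr at week 4. The ratio was 2 or more in all 4 weeks for Psrc1, Eda2r and Phlda3, as for 2.13% of all genes. Within the Pemt-/- arrays, 19 of 30 members were highest at week 4, beside 29.4% of all genes. The plot of intensity by week shows this for Phlda3, Eda2r, Trp53inp1 and Sesn2 among others.

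The members had their smallest median difference at week 2. The median weekly log2 difference of the members was 0.67, 0.12, 0.82 and 0.93 at weeks 1 to 4, while that of all genes stayed between 0.01 and 0.03. The lowest of the 4 weekly differences came at week 2 in 18 of 30 members, beside 32% of all genes, and in 9 of the 14 that rose, beside 50.3% of all genes that rose. At week 2 the difference was below 0 in 11 of 30 members, namely Btg2, Zmat3, Bbc3, Fas, Perp, Ei24, Polk, Rrm2b, Tigar, Dcxr and Ddit4. It was below 0 in 5, 6 and 7 members at weeks 1, 3 and 4. Over all genes tested, 49.2% lay below 0 at week 2 and 46.8%, 47.2% and 47.8% at weeks 1, 3 and 4.

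The members were shifted more on the Pemt-/- than on the Pemt+/+ array of week 2. Against the mean of the other weeks of its genotype, the members had a median log2 difference of -0.42 on the Pemt-/- array and 0.11 on the Pemt+/+ array of week 2. Over all genes tested these medians were -0.05 and 0.00. The 14 members that rose had -0.79 and 0.00, beside -0.33 and 0.03 for all genes that rose. The Pemt-/- array of week 2 also had the lowest median intensity of the 8 arrays, 73.8, and its part in these shifts was not tested. Of the 14 members that rose, 13 had their lowest Pemt-/- value at week 2 (Plk2 had it at week 1), which is 92.9%, beside 58.5% of all genes that rose. The Pemt-/- value at week 2 was lower than the other weeks by a log2 difference of -1.50 for Ddit4, -1.43 for Psrc1, -1.26 for Zmat3 and -1.15 for Plk3. For Cdkn1a the week 2 arrays shifted in opposite directions, by -1.11 in Pemt-/- and 1.31 in Pemt+/+ liver. This brought the genotypes almost level, at 1276 and 1264. Gadd45b ran the other way in its probe set of highest mean. There the Pemt+/+ array of week 2 was lower than the other weeks by -1.87 and the genotype difference was greatest at week 2. In the probe set of Gadd45b with the larger rise, the log2 difference was 2.52 at week 2 and greatest at week 3 (3.90). In the third it was lowest at week 2 (-1.37).

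**Figure D3:**
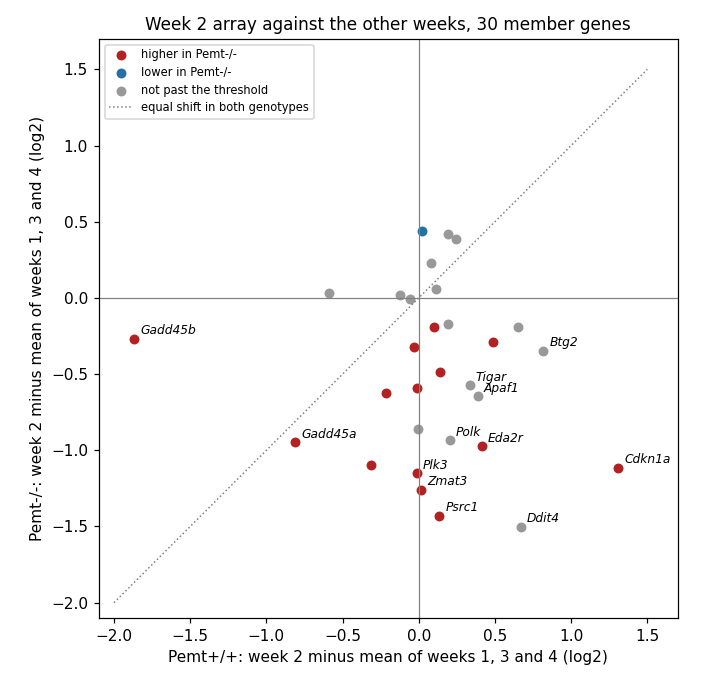
Level of each of the 30 member genes at week 2 minus the mean of weeks 1, 3 and 4, in log2(intensity + 16), for Pemt+/+ (x axis) against Pemt-/- (y axis), coloured by the call of the genotype difference, with a dotted line where both genotypes shift equally. Most members lie below the line, Cdkn1a at 1.31 and -1.11 farthest to the right and Gadd45b at -1.87 and -0.27 farthest to the left.

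With limma, none of the members passed the test of week 2 against the other weeks after adjustment, and neither did any of all genes (0%). At an unadjusted p under 0.05 there were 13 of 30 members, beside 11.3% of all genes. The week 2 difference minus that of the other weeks was -2.42 ± 0.40 SE for Cdkn1a and -2.17 ± 0.30 SE for Ddit4 (adjusted p = 0.304 for each). When week 1 was left out and week 2 was set against weeks 3 and 4, the 2 probe sets of Cdkn1a passed at -2.74 (adjusted p = 0.00161) and -1.59 (adjusted p = 0.016), and so did Ddit4 at -2.22 (adjusted p = 0.01). These were 3 of 52 member probe sets, beside 1.76% of all probe sets tested. Leaving out week 3 or week 4 instead gave 0 member probe sets and 1 over all probe sets each. Each of these differences rests on 1 array per genotype at week 2, so week 2 and the mice sampled then cannot be told apart. The fits with a week left out had fewer residual degrees of freedom than the 2 of the fit with all weeks. Their p-values rest on very few values.

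Cell type markers differed between the genotypes. Of 20 macrophage markers tested 16 rose and none fell, and their summed intensity ran from 37268 to 55107 in Pemt-/- and from 15559 to 22392 in Pemt+/+ liver. All 14 stellate cell and matrix markers rose, with sums of 45174 to 66770 and 15707 to 22141. The lowest Pemt-/- sum of both lists was at week 2, as it was for the neutrophil and cholangiocyte lists. The highest Pemt+/+ sum was at week 2 for the stellate, cholangiocyte and lymphocyte lists, at 22141, 1103 and 610. The hepatocyte sum was highest at week 2 in both genotypes, at 630550 and 739360. None of these weekly differences was tested. Neutrophil markers rose in 3 of 6 (sums 1179 to 1852 and 293 to 739) and cholangiocyte markers in 3 of 7 (sums 1247 to 2389 and 692 to 1103). Of 11 sinusoidal endothelial markers 4 fell (sums 5685 to 11747 and 9053 to 12969), and of 4 T and B lymphocyte markers none passed (sums 571 to 722 and 465 to 610). No marker was at 0 on any array, but neither was any other probe set, so this does not show that the markers were detected. The lymphocyte and neutrophil sums hold 9 and 8 measured markers, of which 4 and 6 were bright enough to be tested. In whole liver, fewer cells of a type and less RNA per cell cannot be told apart, and the part of cell type content in the members' values was not tested.

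The genes that control p53 and its other targets were counted from lists made in the same way. Of 22 tested p53 regulators, 3 rose, none fell and the median log2 difference was -0.01. Trp53bp1, the damage response adaptor 53BP1, rose 2.11-fold (adjusted p = 0.00286). Cltc, the clathrin heavy chain that the study follows as a partner of p53, measured 9834, 9415, 10775 and 11625 in Pemt-/- and 7782, 7743, 7648 and 8796 in Pemt+/+ liver and rose 1.30-fold (adjusted p = 0.0178). This call was lost without week 1, 3 or 4 (adjusted p = 0.0503, 0.128 and 0.0897) and with the mean of its probe sets (adjusted p = 0.062). Atr, a checkpoint kinase, rose 1.38-fold (adjusted p = 0.0336), and this call was lost whichever week was left out (adjusted p = 0.0534 to 0.124). Mdm4, the p53 inhibitor related to Mdm2, had a log2 difference of 0.46 ± 0.15 SE (adjusted p = 0.0746). It passed without week 2 (adjusted p = 0.0145) but not without week 1, 3 or 4 (adjusted p = 0.193, 0.24 and 0.261).

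Among 39 other p53 target genes tested, 14 rose, 4 fell and the median log2 difference was 0.34. Their weekly medians were 0.16, 0.39, 0.24 and 0.30, without the drop at week 2 that the members had. Those of smallest p were Tnfaip8 (3.19-fold higher, adjusted p = 0.00128), Abcb1a (2.61-fold, adjusted p = 0.00151), Igfbp3 (1.89-fold, adjusted p = 0.00156) and Dusp5 (5.53-fold, adjusted p = 0.00156). The genes that fell were Slc19a2, Lpin1, Gpx1 and Hexim1. Several genes of both lists are not analysed here.

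The mitotic and E2F genes, which were kept apart from the members, rose in 29 of 32 with a median log2 difference of 2.19 and weekly medians of 1.95, 1.01, 2.57 and 2.88. The ATF4 stress genes rose in 8 of 16 with a median of 0.74 and weekly medians of 1.33, 0.19, 1.31 and 1.39. Both lists thus had their lowest weekly median at week 2, as the arrest members did with 1.01, 0.39, 1.07 and 1.04 and the death members with 0.61, 0.34, 1.00 and 1.28. The repair members had weekly medians of 0.20, -0.13, 0.31 and 0.12 and the metabolism members 0.30, -0.54, 0.15 and 0.15. These medians are descriptions with no test of the difference between lists.

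**Figure D4:**
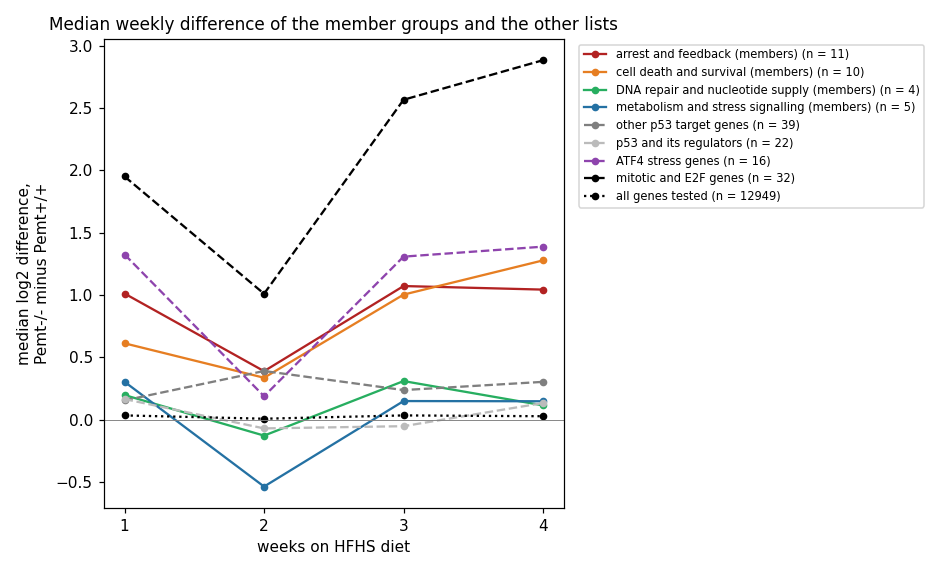
Median weekly difference in log2(intensity + 16), Pemt-/- minus Pemt+/+, of the 4 groups of members (solid lines) and of other gene lists (dashed) against the weeks on HFHS diet, with all genes tested dotted and the number of genes tested in the legend. The arrest members run at 1.01, 0.39, 1.07 and 1.04 and the mitotic and E2F genes at 1.95, 1.01, 2.57 and 2.88, both lowest at week 2, while all genes stay near 0.

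10 members kept their call under each of 15 settings of the limma fit, as far as they were tested: Aen, Ccng1, Dcxr, Eda2r, Phlda3, Plk2, Pmaip1, Psrc1, Sesn2 and Trp53inp1. Eda2r, Pmaip1 and Psrc1 were not tested under the stricter filter. Cdkn1a, Gadd45a, Gadd45b, Plk3 and Zmat3 lost it in at least 1 setting. The unpaired test of the study's methods is not among the 15 settings. With it, after Benjamini-Hochberg adjustment, 7 member genes rose and 0 fell, so Dcxr and some of the genes that rose lost their call. The split of calls over all probe sets depended on the scale, with 2788 higher and 1584 lower (63.8% higher) as deposited and 1977 higher and 3280 lower (37.6% higher) when each array was centred on the median of the probe sets tested, which moved the median of all probe sets from 0.02 to -0.14. On that scale, chosen after seeing the data, 11 members were called higher, and Plk3, Gadd45b and Zmat3 were not (adjusted p = 0.0587, 0.0676 and 0.0636).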

How the data were processed

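Total RNA of 8 mouse liver arrays, 4 per genotype, was measured. The authors deposited the intensity of each of 45101 probe sets on a linear scale, made with Affymetrix Expression Console per the labels. Its version and how it summarised probes are not stated there. After the 64 control probe sets were left out, the platform annotation gave 34945 of the other 45037 probe sets 1 gene and 932 several, and 9160 were unnamed here. By Entrez identifier, 34741 matched the RefSeq table of GRCm38.p6, which also gave the promoter windows. Detection calls were not used, and the median intensity of the arrays ran from 73.8 to 81.3, which, with the number of arrays, limits precision.

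Values were taken as log2(intensity + 16), and probe sets with a mean above the 40th percentile were kept. Linear models for the genotype difference, with week as a factor, were run in limma 3.58.1 under R 4.3.3 (lmFit, then eBayes with an intensity trend), and two-sided p-values were adjusted by Benjamini-Hochberg over all probe sets tested, with a threshold of 0.05. A genotype-by-week-2 term was added for the test of week 2, which left 2 residual degrees of freedom. The scripts were tested on simulated data. The replicate number is the week, which the labels state. Deviations of arrays of the same week correlated at 0.10, -0.02, -0.03 and 0.11 in weeks 1 to 4.

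All members were named, with Pemt, Mdm4, Cltc and up to 4 genes of smallest p in each other list. The members, the lists and the interest in week 2 were chosen with earlier results of these data known. Alternatives were other filters, scalings and pseudocounts, no intensity trend, no week block, the mean of a gene's probe sets, the methods' unpaired test, and leaving out each week. Several genes and their results are not reported here.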

Additional observations from a re-analysis of the deposited data

Results flagged for a closer look

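Of 62 groups of 4 arrays of 1 genotype, checked for an array far from the others (Dixon's gap against the range at the 95% level), 5 stood out, where chance alone gives about 1 in 20. For Mdm2 the Pemt+/+ array of week 1 was low at 523.8, the week in which its genotype difference was largest. For Phlda3 the Pemt+/+ array of week 4 was high at 258.3, and that week's log2 difference of 1.62 was smaller than those of weeks 1 and 3. For Pmaip1 the Pemt-/- array of week 2 was low at 114.3, still above all Pemt+/+ arrays. For Bbc3 the Pemt+/+ array of week 4 was low at 393.2. For Tnfrsf10b, which was too dim to be tested, the Pemt+/+ array of week 2 was high at 26.82.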

How the results depend on the processing

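Among 47 single results of named genes, 581 values under an alternative kept their direction and their side of the threshold, 48 lost the threshold, 11 gained it and 12 changed sign. Those 12 belong to 6 members that did not pass the test with either sign in those settings. Fas was -0.124 on centring over the probe sets tested and -0.0882 on quantile normalization, where Ei24 was 0.0117. Rrm2b and Tigar were 0.0422 and 0.0823 with the mean of the probe sets, and Sesn1 was 0.0072 on median centring. When 1 week was left out, Fas ran from -0.188 (without week 1) to 0.244, Rrm2b from -0.225 to 0.132 (without week 2), Sesn1 from -0.0402 to 0.0197 (without week 1, and above 0 without week 3 too), Tigar from -0.137 to 0.201 (without week 2) and Ddit4 from -0.018 (without week 4) to 0.845. The cause of these changes and of those below was not tested. Without the intensity trend, 9 member genes and 13 member probe sets rose, against 14 and 20. Over all probe sets tested 1715 rose without the trend, against 2788. With the methods' unpaired test after Benjamini-Hochberg adjustment, 7 genes and 10 probe sets rose and 0 genes and 0 probe sets fell, and at its unadjusted threshold 3 probe sets fell. After that adjustment 1636 of all probe sets rose and 875 fell, against 2788 and 1584. Quantile normalization and centring on the median of the probe sets tested, the latter chosen after seeing the data, each gave 2 member probe sets that fell, against 1. Over all probe sets 1741 and 3280 fell, against 1584. Without the replicate block, that is without week in the model, 13 genes and 19 probe sets rose and 1 of each fell, beside 2909 and 1710 of all probe sets. Leaving out 1 week at a time gave 9 to 17 genes and 11 to 23 probe sets that rose, 1 to 1 that fell, and 0 to 3 probe sets past the test of week 2. In that last test the 3 were found without week 1, with 475 over all probe sets. In the genotype fits with 1 week left out, 1334 to 2942 of all probe sets rose and 484 to 1851 fell. The lowest counts of member genes and member probe sets that rose were those without week 1, and 13 member probe sets rose without week 3. The median over member probe sets was 0.38 and lay between 0.32 and 0.53 when 1 week was left out.

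For member probe sets with a weekly ratio of 2 or more (13, 6, 17 and 17), a threshold of 1.5 gave 27, 15, 23 and 29, and for the inverse (0, 2, 0 and 2) it gave 2, 7, 3 and 3. The share of all probe sets past the ratio of 1.5 is not reported here, so these counts are not set against it. At week 2, quantile normalization and adding 16 to the intensities each gave 3 at 2 or more. With 1 array per genotype and week, dim genes such as Tnfrsf10b and single weeks cannot be judged.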
